A study of Mus musculus with 4 samples.

Results

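The regions described here are peaks of H3K27ac whose summit lies in an exon of a protein-coding gene and which lie apart from known promoters. A summit is the base of highest enrichment in a peak. A peak of the replicated list, which was made from both pools, was taken when it lay on an autosome and its summit fell in an exon. It also had to lie clear of the 1 kb on either side of every transcription start site (TSS) of a coding or long non-coding gene, and more than 1 kb from the 3′ end of its gene. Of the 70961 autosomal peaks, 1847 met the rule, or 2.6%, out of 72027 peaks in the whole list. None of these choices used the strength of a peak.

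H3K27ac was measured by chromatin immunoprecipitation sequencing (ChIP-seq), in which DNA bound to the acetylated histone is recovered with an antibody and sequenced. The tissue was left cerebral cortex, taken from females of 2 months. The mice were B6CASTF1/J, the offspring of a cross of C57BL/6J and CAST/EiJ mice. The 4 samples formed 1 group of 2 pools, I and J, of 4 biosamples each, and each pool gave 2 technical libraries that share 1 filtered alignment. Values therefore exist per pool, no treatment or second tissue was measured, and nothing was tested between conditions. How reads of the CAST/EiJ copy were aligned was not stated in the sources used here, and such reads can map less well where the strains differ. Bulk cortex mixes many cell types, so more cells with a mark and more of the mark per cell cannot be told apart.

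Acetylation of lysine 27 on histone H3 marks active promoters and enhancers, the latter being stretches of DNA that raise transcription of a gene from a distance. Most enhancers lie in introns or between genes, yet an exon can hold one too, and its bases then serve both the transcript and the factors that bind the DNA. An exon that starts a transcript absent from an annotation can look the same, since a promoter carries this mark as well.

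The 7 sequences below show what the strongest regions in coding exons are made of. They are the summit and the 100 bp on either side of it, for coding members of high signal whose window held no untranslated exon. Each is written in the direction of the gene, from the GRCm38.p6 assembly (mm10), with bases of exons in capitals and bases of introns in lower case.
Ankrd24, chr10:81643290-81643490, + strand: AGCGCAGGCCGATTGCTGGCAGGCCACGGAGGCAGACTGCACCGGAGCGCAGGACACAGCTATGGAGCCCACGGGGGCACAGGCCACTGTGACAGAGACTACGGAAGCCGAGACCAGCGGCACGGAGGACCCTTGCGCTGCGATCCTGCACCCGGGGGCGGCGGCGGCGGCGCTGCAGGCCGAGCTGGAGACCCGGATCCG
Soga3, chr10:29147249-29147449, + strand: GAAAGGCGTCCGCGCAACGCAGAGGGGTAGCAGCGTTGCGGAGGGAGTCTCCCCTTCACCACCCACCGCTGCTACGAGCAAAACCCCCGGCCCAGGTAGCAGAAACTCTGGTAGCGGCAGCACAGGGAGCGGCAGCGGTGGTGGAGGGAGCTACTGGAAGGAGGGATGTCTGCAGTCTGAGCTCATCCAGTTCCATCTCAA
Clec11a, chr7:44304610-44304810, - strand: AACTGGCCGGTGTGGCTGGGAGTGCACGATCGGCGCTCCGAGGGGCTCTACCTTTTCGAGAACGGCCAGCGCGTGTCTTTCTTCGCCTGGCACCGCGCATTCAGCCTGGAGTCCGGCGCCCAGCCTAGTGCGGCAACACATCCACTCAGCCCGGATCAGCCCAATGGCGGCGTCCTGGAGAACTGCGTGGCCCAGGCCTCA
Btd, chr14:31662209-31662409, + strand: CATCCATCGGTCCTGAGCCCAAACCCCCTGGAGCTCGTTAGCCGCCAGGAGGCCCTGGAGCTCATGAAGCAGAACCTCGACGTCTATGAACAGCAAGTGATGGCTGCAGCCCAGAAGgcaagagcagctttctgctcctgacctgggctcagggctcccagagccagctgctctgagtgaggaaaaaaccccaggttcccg
Speg, chr1:75384993-75385193, + strand: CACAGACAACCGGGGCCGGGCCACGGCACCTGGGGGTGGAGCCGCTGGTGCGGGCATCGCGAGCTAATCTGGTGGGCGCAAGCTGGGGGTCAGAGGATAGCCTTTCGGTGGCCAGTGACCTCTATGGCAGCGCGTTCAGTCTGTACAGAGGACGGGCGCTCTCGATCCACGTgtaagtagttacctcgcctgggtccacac
Apold1, chr6:134983755-134983955, + strand: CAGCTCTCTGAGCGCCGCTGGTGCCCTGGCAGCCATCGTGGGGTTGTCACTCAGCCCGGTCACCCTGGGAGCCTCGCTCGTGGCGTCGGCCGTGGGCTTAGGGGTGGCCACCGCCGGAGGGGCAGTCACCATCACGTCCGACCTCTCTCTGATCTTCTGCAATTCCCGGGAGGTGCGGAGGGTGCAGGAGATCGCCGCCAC
Rin2, chr2:145860385-145860585, + strand: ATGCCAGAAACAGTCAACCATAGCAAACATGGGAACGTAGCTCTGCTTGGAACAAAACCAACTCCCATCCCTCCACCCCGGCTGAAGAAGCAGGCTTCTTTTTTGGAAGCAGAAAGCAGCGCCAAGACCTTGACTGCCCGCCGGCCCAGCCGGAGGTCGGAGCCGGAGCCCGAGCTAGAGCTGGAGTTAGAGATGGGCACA
In 5 of the 7 the whole window was exon. The Btd window held 117 exon bases and the Speg window 172, and both ran across a splice donor into the next intron. The share of G and C bases ran from 57.2% in Rin2 to 71.6% in Ankrd24, against a median of 48.8% for intronic peaks. The Ankrd24 window held 21 CpG dinucleotides, the Clec11a window 19 and the Btd window 6.

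The strongest exonic peaks lay in genes of diverse function. The highest signal, 19.1, was in exon 6 of 11 of Msra, an enzyme that repairs oxidised methionine, where pool I gave 21.5 and pool J 16.2. Signal is the authors' own value for each peak, and how it was normalized was not stated in the sources used here. A pool's value is the highest signal among the peaks of its own list that overlap the region. The peak in exon 17 of 20 of Ankrd24, an ankyrin repeat protein, had 18.1, with 22.7 in pool I and 13.4 in pool J. In exon 2 of 7 of Soga3 it was 17.8, with 22.1 and 14.3. Clec11a, a secreted lectin-like growth factor, had 14.6 in its last exon, with 18.4 and 11.1. Both pools thus held all 4 of these peaks, with the higher value in pool I.

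Among the next, Btd, the biotinidase that recycles biotin, had 14.0 (20.6 in pool I and 7.90 in pool J). Pdcl3, a phosducin-like helper of protein folding, had 13.8 (17.2 and 11.2), in an untranslated part of its first exon. Speg, a kinase of striated muscle, had 12.2 (14.3 and 11.3). All 3 were again higher in pool I than in pool J, but the Btd value of pool I came from a peak whose summit lay 396 bp away, outside the exon. Nup160, a part of the nuclear pore, had 12.1 (15.3 and 9.20), Apold1 11.9 (14.7 and 9.25) and Fbxl22 11.5 (24.9 and 7.42). The Fbxl22 value of pool I came from a wider peak that reached the promoter, with its summit 634 bp away, and so is not the strength of the exonic region alone.

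**Figure D1:**
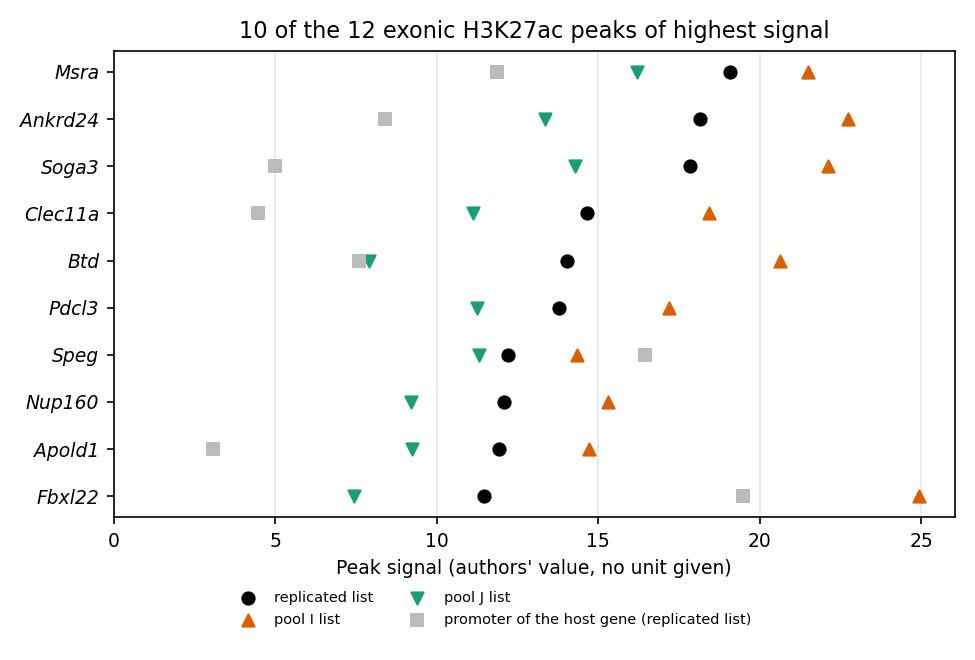
Signal of 10 of the 12 exonic peaks of highest signal (x axis, the authors' value with no unit given) in the replicated list, in the list of each pool and at the promoter of the host gene, 1 gene per line. Pool I lies above pool J in every line, and the promoter of Msra, at 11.9, lies below the exonic peak, while that of Fbxl22, at 19.5, lies above it. Pdcl3 and Nup160 show no promoter point, since no peak overlapped their promoters.

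The host promoter was often the weaker of the pair at the top of the ranking, an order by exonic signal that favours such pairs. The Soga3 promoter had 5.001, that of Clec11a 4.46, that of Apold1 3.07 and that of Ankrd24 8.40, all below the exonic peak. The Speg promoter had 16.4 and that of Fbxl22 19.5, above it. Among all 1847 exonic peaks this was rare: 1696 had a host with a promoter peak, and 73 (3.95% of the 1847) were stronger than it. Over those 1696 regions the Spearman rho between the exonic and the host promoter signal was -0.01, a description across peaks that share 2 pools and, in part, a gene.

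Some of these regions lay near a start site that the rule did not use. The sets searched here, full GENCODE vM21 and RefSeq, hold transcripts of every gene type. Either set placed a start site within 1 kb of 489 of the 1847 peaks (26.5%). Among intronic peaks chosen by the same rule the share was 12.2%. Most of that gap came from GENCODE, which alone gave 23.1% and 8.57%, while RefSeq alone gave 6.98% and 5.98%. Of the 12 of highest signal, 7 had a site of either set that near, among them Msra, Ankrd24, Soga3, Pdcl3, Speg and Apold1. In Msra the nearest such site was 100 bp from the summit, in Soga3 14 bp and in Speg 45 bp. No such site lay within 1 kb of the peaks in Clec11a, Btd, Nup160 and Fbxl22. Regions near such a site had a median signal of 3.50 and the other 1358 had 3.26. Whether transcripts start at these places in the cortex was not tested.

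Coding sequence held 1226 of the summits (66.4%), the untranslated part after the stop codon 587 (31.8%) and the part before the start codon 34 (1.84%). By order in the transcript, 1041 lay in internal exons, 759 in last exons, 21 in first exons and 26 in transcripts of a single exon. First exons are few because the rule removes the surroundings of every TSS. The exon was part of every basic transcript that spans the summit in 1659 cases (89.8%). Exons longer than 1000 bp held 881 peaks (47.7%), and exons of up to 150 bp held 393 (21.3%). The median peak was 525 bp wide and 70.9% of its bases were exonic, while 703 peaks were wholly exonic and 702 covered an exon from end to end. A summit in a short exon thus often belongs to a region that spreads well into the introns beside it.

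How far the summit itself fixes an exon can be read from the pools, whose lists have summits of their own. Where pool I had a matching peak, its summit lay in the same exon in 1043 of 1404 cases (74.3%), at a median distance of 42 bp. In pool J it was 738 of 927 (79.6%), at a median of 35 bp. Of the 832 regions matched in both pools, both summits fell in the same exon in 511 (61.4%). For exons of up to 150 bp this was 48 of 166 (28.9%), and for exons above 1000 bp 324 of 373 (86.9%). Regions in long exons are therefore placed in their exon by both pools far more often than those in short ones. The widest region, 9719 bp at Zeb2, had neither pool's summit in the exon that named it. A pool's value given for a region can thus belong to a summit outside its exon, which is stated for only part of the regions named.

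Most of the exonic peaks were of modest strength. Their median signal was 3.27 (interquartile range 2.77 to 4.16), the same as the 3.27 of the 32322 intronic peaks and below the 6.62 of the 19175 promoter peaks. A −log10 q of at least 5, a stricter threshold on each peak's significance over background, was reached by 750 (40.6%), against 39.6% of intronic peaks and 53.4% of all autosomal peaks. The top 10% of the whole replicated list by signal, chromosome X included, held 32 of the exonic peaks (1.73%), against 1.29% of intronic ones. Widths were alike too, with medians of 525 bp in exons and 529 bp in introns, and 98 exonic peaks (5.31%) were 2 kb or wider, against 5.73% in introns and 7.92% of all. The median signal was 3.32 in coding sequence, 3.23 after the stop codon and 3.52 before the start codon. Peaks left out because they lay within 1 kb of the 3′ end, 787 in number, had a median of 3.42.

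**Figure D2:**
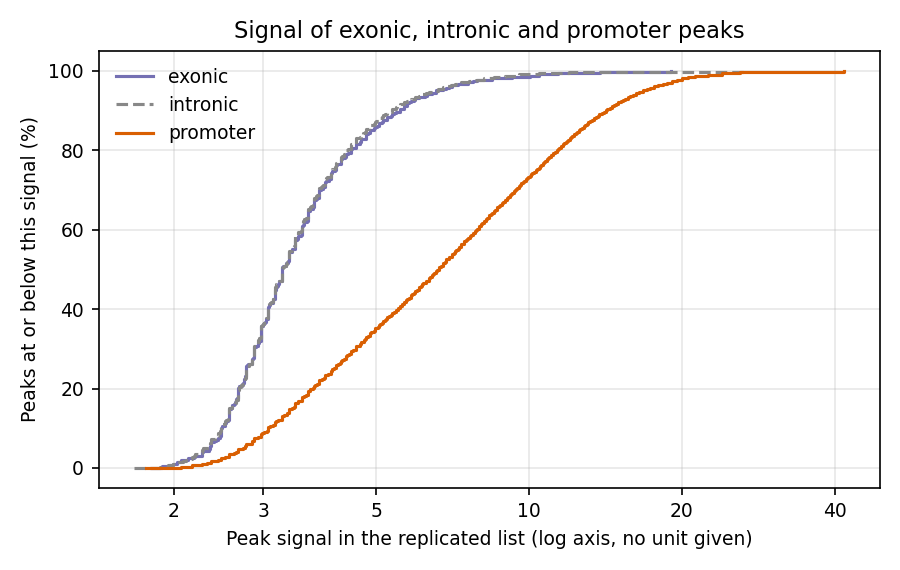
Share of peaks at or below each signal (y axis, percent) for exonic, intronic and promoter peaks of the replicated list (x axis, log scale, no unit given). The curves of exonic and intronic peaks lie on each other, with medians of 3.27, and the promoter curve lies to the right, with a median of 6.62.

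Of the 1847 regions, 832 were matched in the lists of both pools (45.05%), against 55.9% of all autosomal peaks and 44.8% of intronic ones. The exact binomial 95% interval of that share is 42.8% to 47.3%, which treats peaks as independent and covers counting error only. A match in pool I but not J was found for 572 (31.0%), in J but not I for 95 (5.14%), and in no pool for 348 (18.8%). Over all autosomal peaks these shares were 26.3%, 3.8% and 14%, and over intronic peaks 32.5%, 4.45% and 18.3%, so the exonic shares lay close to the intronic ones. The list of pool J held 49839 peaks and that of pool I 69835, so fewer matches in pool J go with its shorter list, and the part that depth plays was not tested. In the regions matched in both, the median signal was 5.32 in pool I and 3.88 in pool J. The median ratio of pool I to pool J was 1.38. Among matched intronic, promoter and all autosomal peaks this ratio was 1.41 each, so higher values in pool I were not particular to exonic regions. Spearman's rho of the 2 signals over these 832 regions was 0.57. In 50 of the 1404 matches of pool I the pool's peak reached a promoter, and in 2 of the 927 of pool J. With such matches set aside, 805 regions (43.6% of all) were matched in both.

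The strongest regions of pool I alone were in exon 4 of 25 of Jak2, a cytokine receptor kinase, with 5.71 (7.28 in pool I), in Rps6ka5, a kinase that acts on histone H3 and CREB, with 5.52 (7.26), and in Lactbl1 with 5.14 (5.30). Those of pool J alone were in Dclk2, a doublecortin-like kinase, with 4.17 (4.27 in pool J), in Slit2, a guidance ligand for axons, with 3.97 (3.71), and in Icam5, an adhesion molecule of forebrain neurons, with 3.87 (4.64). The strongest matched in neither were in D1Ertd622e with 3.87, Ptprn, a protein of dense-core vesicles, with 3.77, and Sox1, a transcription factor of neural progenitors, with 3.77. All 9 lay below the lowest of the 12 strongest regions, which had 11.5. Peaks that covered a whole exon were matched in both pools in 55.1% of cases, and those that did not in 38.9%. The former were wider, with a median of 642 bp against 457 bp, and stronger, with a median signal of 3.57 against 3.17. What part width or signal had in the gap was not tested.

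Exonic peaks were richer in G and C than intronic ones. The median share of G and C within 100 bp of the summit was 54.2% in exons and 48.8% in introns, a difference of 5.47 points. The ratio of observed to expected CpG dinucleotides had a median of 0.330 against 0.186. A ratio of at least 0.6, a value used to define CpG islands, was reached by 271 exonic peaks (14.7%), by 2.56% of intronic peaks and by 18.4% of all autosomal peaks, promoters included. It was reached by 19.4% of the peaks in coding sequence and 4.94% of those after the stop codon. The 271 CpG-rich regions had a median signal of 3.87 and 61.3% were matched in both pools, against 3.26 and 42.3% for the other 1576. Start sites that the rule did not use lay within 1 kb of 38.01% of the CpG-rich regions and 24.5% of the others. Repeats were absent from the window in 59.99% of exonic and 46.5% of intronic peaks.

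Base composition also bore on how densely exons carried peaks. The autosomes held 44.95 Mb of exon and 883.7 Mb of intron that the rule leaves open. They carried 41.1 and 36.6 peak summits per Mb, a ratio of 1.12. Open bases were counted singly, while a peak was left out when any part of it came within 1 kb of a TSS or the 3′ end. This lowers the densities close to those limits. With the 3′ distance taken from the summit the ratio was 1.23. Exonic bases lay in windows with a mean GC of 47.2% and intronic bases in windows with 42.5%. Within each of 6 classes of GC the exons held fewer summits per Mb than the introns. In windows of 40 to 45% GC the exons held 16.7 per Mb and the introns 28.2, in windows of 55 to 60% 70.4 and 121, and at 60% and over 124 and 144. When the introns' density at equal GC was applied to the exonic bases it gave 2722 summits, and the 1847 found were 0.679 of that. Outside repeats the ratio was 0.948 without regard to GC and 0.556 at equal GC. Exons thus held more peaks per base than introns only in the comparisons that took account of neither repeats nor composition.

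**Figure D3:**
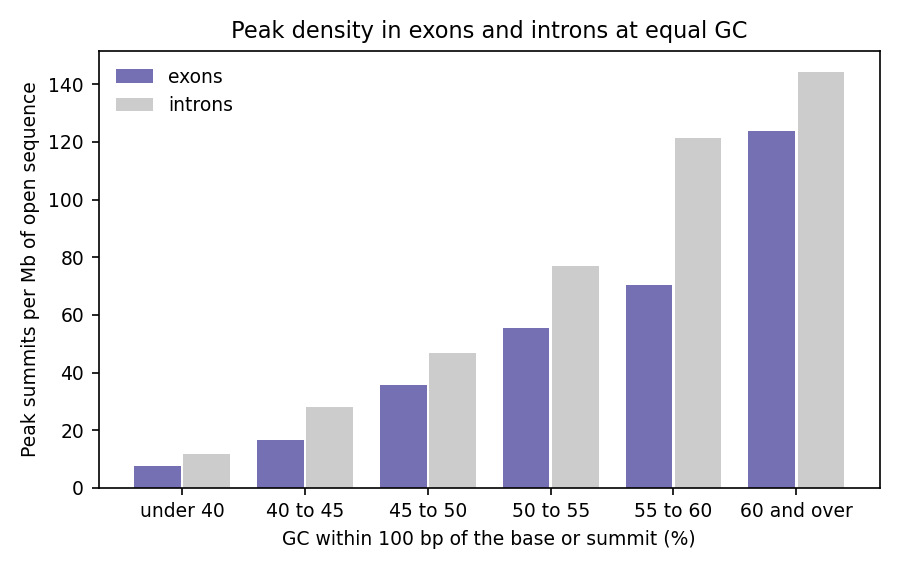
Peak summits per Mb of exon and of intron (y axis) in 6 classes of GC within 100 bp of each base or summit (x axis, percent). Density climbs with GC in both, from 7.42 and 11.7 per Mb under 40% to 124 and 144 at 60% and over, and the bar for exons is the lower of the pair in all 6 classes.

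Density also differed among exons. Coding sequence held 45.7 summits per Mb and other exon sequence 34.3. Exons above 300 and up to 1000 bp held 56.8 per Mb, against 38.9 for exons of up to 150 bp and 38.5 for those above 1000 bp. These densities took no account of GC. Its median at the summit was 56.2% in coding sequence and 51.2% after the stop codon. By exon length it was 57.7% above 300 and up to 1000 bp, and 53.2% both up to 150 bp and above 1000 bp. Regions less than 2 kb from the nearest TSS had the lowest ratio to introns, 0.839, and those beyond 100 kb the highest, 1.38, a stratum with 55 exonic peaks. The median exonic peak lay 13090 bp from the nearest TSS of any gene and 27333 bp from that of its own gene. In 1007 cases (54.5%) the nearest TSS belonged to another gene.

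Short sequences known as binding motifs were counted within 100 bp of the summit on both strands, as letters that match and not as sites that are bound. The AP-1 motif TGANTCA, bound by Fos and Jun factors, was in 54 exonic peaks (2.92%), 5.89% of intronic peaks and 5.17% of all autosomal peaks. The MEF2 motif was in 9 exonic peaks (0.487%), against 2.31% in introns and 1.88% in all. The E-box CAGATG, which Neurod-type factors bind, was in 16.6% of exonic, 17.3% of intronic and 15.2% of all peaks. The motif of the CREB group, TGACGTCA, was in 9 exonic peaks (0.487%), 0.127% of intronic peaks and 0.151% of all. The GC box GGGCGG, bound by Sp factors, was in 8.55%, 3.10% and 10.3%. The EGR motif GCGTGGGCG was in 4 exonic peaks (0.217%), 0.0278% of intronic peaks and 0.158% of all. The core of the CTCF motif was in 32 exonic peaks (1.73%), 0.888% of intronic peaks and 1.34% of all. The nuclear receptor motif AAAGGTCA was in 0.812%, 1.22% and 1.12%. The shares were also compared within classes of window GC. For AP-1 the share was lower in exons both in windows of under 50% GC (4.10% against 6.52% in introns) and in the others (2.47% against 5.03%), and likewise for MEF2 (1.37% against 3.59%, and 0.150% against 0.539%). Under 50% GC the CTCF core was in none of 512 exonic windows and in 0.436% of intronic ones, and in the others it was in 2.40% and 1.52%. The GC box was in 1.56% and 1.23% of windows under 50% GC and in 11.2% and 5.69% of the others. The E-box was in 17.97% of exonic and 16.5% of intronic windows under 50% GC, and in 16.0% and 18.4% of the others. For the nuclear receptor motif these were 1.76% and 1.26%, then 0.449% and 1.16%. The EGR motif was in 0% and 0.0053% of windows under 50% GC, and in 0.300% and 0.0591% of the others. The motif of the CREB group was in 0.586% and 0.101% of windows under 50% GC, then in 0.449% and 0.163% of the others. The direction between exons and introns thus differed between the GC classes for the CTCF core, the E-box, the nuclear receptor motif and the EGR motif. For the CTCF core, the nuclear receptor motif and EGR it rests on few windows, with 32, 15 and 4 exonic peaks in all. The shares of the MEF2 motif and of the CREB group motif also rest on few windows, with 9 exonic peaks each. An EGR match that is followed by a G also holds the GC box, so these counts are not separate.

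The AP-1 motif had its strongest carriers in Banp, with 7.16 (8.39 in pool I and 5.75 in pool J), in Dab2ip, with 7.06 (9.62 and 5.57), and in Usp25, a deubiquitinase, with 6.94 (8.29 and 5.08). The CREB-type motif had them in Trpv3, a heat-gated cation channel, with 5.42 (5.89 and 5.38), in Dcaf4 with 3.75 (4.95 and 3.56), and in Arfgef3 with 3.68 (7.78 and 3.45). Carriers of the EGR motif included Usp49 with 5.66 (7.37 and 4.27) and Rai1, a chromatin-associated regulator, with 3.37 (4.50 and 3.15). The CTCF core was in the Btd window, in Synpo2l with 11.3 (13.1 and 9.83) and in B430305J03Rik with 6.86 (7.05 and 5.35). All of these were matched in both pools, with the higher value in pool I in each.

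The 1847 regions lay in 1375 genes, or 6.61% of the 20807 autosomal coding genes. Of these hosts 1045 had 1 region, 245 had 2 and 85 had 3 or more. A promoter peak was present in 1245 hosts (90.5%), against 59.3% of all autosomal coding genes. Per Mb of exon open to the rule, genes with a promoter peak held 51.2 regions and genes without one 12.4. Hosts had more exon open to the rule, with a median of 3503 bp against 1635 bp in other genes. With the genes put in 4 equal groups by open exon length, the share that were hosts went from 0.947% through 4.31% and 8.47% to 15.9%. The density over the same groups went from 24.1 through 38.2 and 41.3 to 42.3 per Mb. The 151 regions in hosts without a promoter peak had a median signal of 3.57. They lay more than 10 kb from any other peak in 31.8% of cases, against 11.0% of the regions in hosts with one.

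D1Ertd622e had the most regions, 16, all in its last exon of 40044 bp, which holds the untranslated sequence after the stop codon. Their signals ran from 2.19 to 6.36. The highest, 993 bp wide, had 6.43 in pool I and 5.58 in pool J, and the next, at 4.14, had 5.11 and 3.69. Below them, the region at 4.06 had 4.12 and 3.89, and the region at 3.36 had 4.24 and 3.90. These 4 had a match in both pools, 5 others matched pool I but not J, 2 matched J but not I, and 5 matched no pool. Without this gene 1831 regions remained, 45.2% of them matched in both pools, with the same median signal of 3.27. The 16 regions lie in 39133 bp of open exon, and all were below the promoter peak of the gene, which had 16.2.

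**Figure D4:**
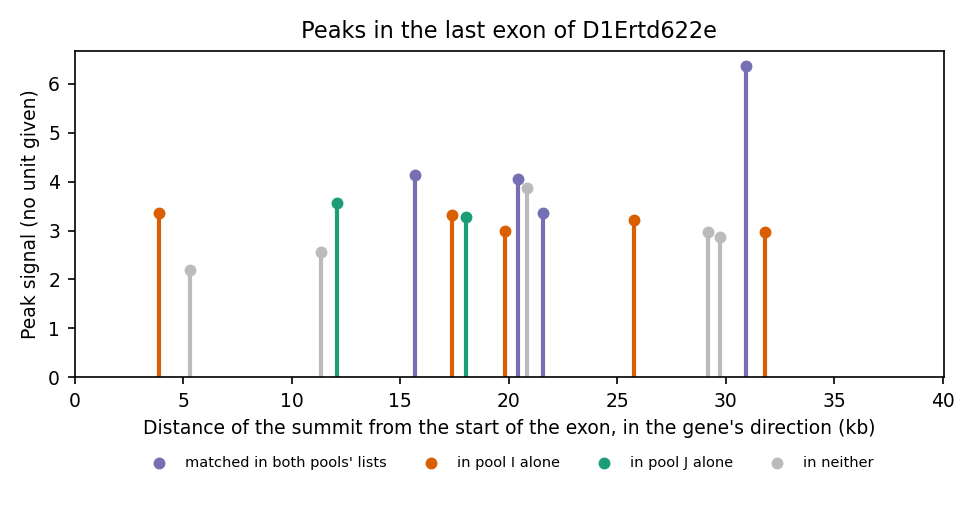
Signal of the 16 exonic peaks of D1Ertd622e (y axis, no unit given) by the distance of the summit from the start of the exon in the direction of the gene (x axis, kb), coloured by the pools whose lists hold a match. The highest, 6.36, lies in the distal part of the exon, and the 5 in grey have no match in either pool.

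Nav2, a neuron navigator gene, had 7 regions with signals from 2.36 to 6.45. The strongest, in exon 19 of 39, had 6.60 in pool I and 5.55 in pool J, with the summit of pool I 343 bp away, outside that exon. Zfhx2, a zinc finger homeobox gene, had 6, from 2.13 to 5.06, the strongest with 6.75 and 5.19. Myo5a, a myosin that carries cargo in dendrites, had 5, from 3.03 to 7.76, and the strongest (10.4 and 5.57) lay in its last exon. Adgrb2, an adhesion G protein-coupled receptor, had 5, from 2.87 to 6.96, spread over exons 4, 6, 13, 19 and 22 of the transcripts that hold them. Slc4a3, an anion exchanger, had 5, from 2.63 to 6.86. In its weakest region the pool I value of 16.3 came from a peak whose summit lay outside the exon. Slc8a2, a sodium and calcium exchanger, had 5, from 3.17 to 6.06, and Ildr2 had 5, from 2.60 to 5.76. In every one of these 7 genes the promoter peak was stronger than the strongest exonic region, from 6.46 in Ildr2 to 16.6 in Myo5a. Bsn, Shank1, Depdc5 and Strbp also held 5 regions each, with a lower summed signal.

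The widest regions combined size with moderate or high signal. That of Zeb2, a transcription factor of neural development, spanned 9719 bp with 6.55 (12.7 in pool I and 7.47 in pool J). Gas7, a gene of neurite outgrowth, had 6054 bp with 10.5 (13.1 and 7.79). Camk2a, the kinase of excitatory synapses, had 5609 bp with 6.78 (10.7 and 5.80). Msra had 5690 bp, Speg 5584 and Btd 4994, at the signals given above. In Gas7 and Camk2a the exon at the summit had 75 and 60 bp, a small part of the region. The summit of pool J in Gas7 and that of pool I in Camk2a lay outside that exon.

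By location, the strongest region after a stop codon was that of Fbxl22, followed by Coa7, a mitochondrial assembly factor, with 11.0 (17.1 in pool I and 7.64 in pool J), and Fam172a with 10.5 (12.3 and 9.96). Before a start codon Pdcl3 and Nup160 led, followed by Hdac5, a histone deacetylase, with 10.1 (11.9 and 7.98). In exons of up to 150 bp the strongest were Glt8d2 with 10.7 (14.5 and 7.24), Gas7, and Foxp4, a forkhead factor, with 10.3 (12.9 and 9.09). In transcripts of a single exon Sox11, a factor of immature neurons, led with 9.76 (12.9 and 8.53), in an exon of 8311 bp. Syne1, a large protein of the nuclear envelope, had 10.4 (12.5 and 9.65) in exon 89 of 146. Each of these had the higher value in pool I. In Glt8d2, Gas7 and Syne1 the summit of pool J lay outside the exon, and in Foxp4 that of pool I did.

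The labelled tissue was checked on promoters. A promoter peak was found for 18 of 18 markers of excitatory neurons, 12 of 20 of interneurons, 16 of 18 of astrocytes, 14 of 17 of oligodendrocytes, 10 of 16 of microglia and 14 of 16 of endothelial cells. It was found for 3 of 12 markers of pericytes, 2 of 10 of meningeal fibroblasts and 2 of 10 of choroid and ependymal cells. Genes of liver had 1 of 12, of germ cells 1 of 11, of striated muscle 3 of 13, and Hox genes 0 of 15. Over all autosomal coding genes the share was 59.3%. The counts for interneurons and microglia lay close to that share, so they say little about those cells. For the autosomal genes of the same lists, exonic regions were counted beside the number that the overall density of 41.1 per Mb gives for their open exon length. That number takes no account of promoter peaks: genes with one held 51.2 regions per Mb and genes without one 12.4. It therefore runs low for lists where most genes have a promoter peak, and high for lists where few do. The lists are small, and their members share long genes and promoter peaks with other lists.

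Neural transcription factors held more regions than any other of the 24 lists. Of 28, 12 hosted 27 regions, where the overall density gives 7.76. Sox11, Zeb2 and Bcl11a, the last a zinc finger repressor with 6.47 (5.86 and 4.89) in exon 2, had the strongest. In Bcl11a the summits of pools I and J lay 1060 and 895 bp away, both outside that exon. Other hosts included Nfib, Tcf4, Nfix, Pou3f2, Satb1, Klf7, Mef2d and Mef2c. Nfib had 5.90 (6.24 and 4.64) in exon 2, and Tcf4 5.36 (6.14 and 3.22) in exon 9. Of the 27, the signals ran from 1.80, in Satb1, to 9.76.

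Genes of the cytoskeleton and of synapses also held more regions than the overall density gives. Of 22 spectrin, ankyrin and cytoskeleton genes, 11 hosted 22 regions, where the overall density gives 8.19. Myo5a led them, with Ank3, which organises the axon initial segment, at 5.76 (7.78 and 4.09) and Dst, a large linker protein, at 4.62 (6.75 and 3.52). Of 23 presynaptic genes 9 hosted 16 regions, beside 4.88. Bsn, a scaffold of the active zone, had 6.56 (5.50 and 5.57), and Unc13a, a priming factor of vesicles, 5.76 (7.07 and 4.64). Vamp2, the vesicle fusion protein, had 4.17, and its pool I value of 25.7 came from a peak that reached the promoter. Of 21 postsynaptic genes 7 hosted 12, beside 5.92, led by Shank1, a scaffold of the postsynaptic density, with 5.66 (7.78 and 4.27).

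Channel and adhesion genes lay closer to the overall density. Of 28 voltage-gated channel genes 11 hosted 14 regions, beside 8.43, led by Kcna2 with 5.06. Its pool I value of 21.0 again came from a peak that reached the promoter, and pool J gave 4.64. Kcna4 had 4.96 (6.96 and 3.52) in its coding exon. Of 25 cell adhesion genes 10 hosted 15, beside 8.87. Lrp1, a lipoprotein receptor, led with 5.76 (8.19 and 4.08), followed by Ptprs, a receptor phosphatase, with 5.66 (7.57 and 5.01). The Ptprs value of pool I came from a peak whose summit lay 2022 bp away, outside the exon. Axon guidance genes had 8, beside 6.18, and chromatin regulators 10, beside 8.62. Extracellular matrix genes had 4, beside 5.46, led by Tnr, tenascin-R of perineuronal nets, with 4.27 (4.30 in pool I and 4.45 in pool J).

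Among markers of cell types, those of excitatory neurons held 8 regions in 5 of 18 genes, beside 3.21. Camk2a led, followed by Chrm1, a muscarinic receptor, with 6.16 (5.65 and 5.01). Astrocyte markers held 6 in 4 of 18 genes, beside 1.96, led by Slc4a4, a bicarbonate transporter, with 4.76 (5.93 and 3.20). Oligodendrocyte markers held 5 in 4 of 17, beside 1.40, led by Mbp, a myelin protein, with 4.76 (6.34 and 3.34). Activity-regulated genes held 7 in 5 of 25, beside 2.17, led by Nptx2, a secreted pentraxin, with 5.96 (7.46 and 4.45). Pericyte and meningeal markers held 2 each, in Notch3 and Foxc1, beside 1.66 and 1.25, so these counts lay close to the overall density. No marker of interneurons, microglia, endothelial cells or choroid and ependymal cells held any, beside 2.59, 0.965, 2.07 and 0.429, so that counts this low leave little room below the overall density.

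**Figure D5:**
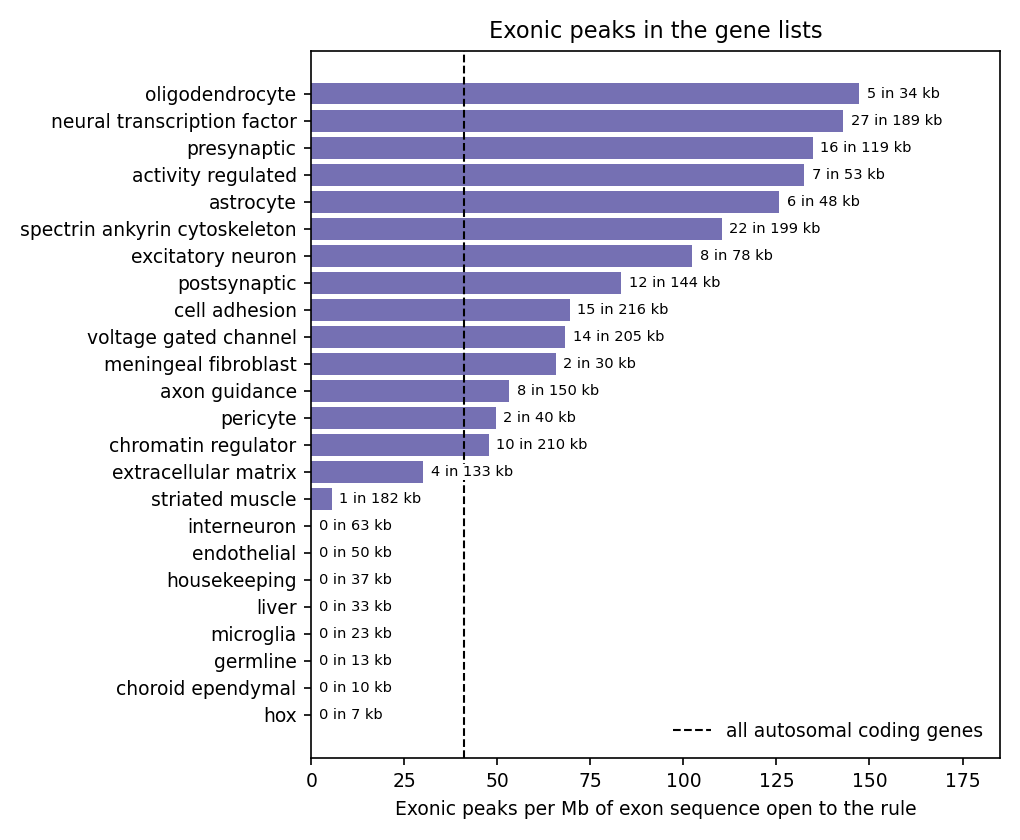
Exonic peaks per Mb of open exon in each of 24 gene lists (x axis), with the number of peaks and the open exon length in kb beside each bar and the density over all autosomal coding genes, 41.1 per Mb, as a dashed line. Oligodendrocyte markers, with 147 per Mb from 5 peaks, and neural transcription factors, with 143 per Mb from 27 peaks, have the longest bars, and striated muscle genes have 1 peak in 182 kb.

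Striated muscle genes, among them Ttn, the giant protein of the sarcomere, held 1 region in 182 kb of exon, beside 7.47, in Myh1 with 2.67 (2.54 in pool I and no match in pool J). Genes of liver, of germ cells and of the Hox clusters held none, beside 1.35, 0.549 and 0.303. Housekeeping genes, which had a promoter peak in 18 of 18 cases, also held none, beside 1.53. Neural transcription factors, with a promoter peak in 28 of 28 cases, held 27 in 188.8 kb of open exon, and the housekeeping genes 0 in 37.2 kb.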

How the data were processed

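H3K27ac ChIP-seq peaks came from 4 libraries of 2 pools of left cerebral cortex, all 1 group. The authors deposited 4 peak lists in narrowPeak format on mm10: a replicated list and a pseudoreplicated list of both pools, and 1 pseudoreplicated list for each pool alone. The deposited columns used were the signal of each peak, its −log10 q (a q-value over background; the −log10 p-value beside it was not used) and the offset of its summit. The aligner, peak caller, their versions and the normalization of the signal were not stated in the sources used here, and the lists hold no read totals, so depth is unknown and no interval for it was made.

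Peaks were classed against GENCODE vM21 (basic set, GRCm38.p6), taken in the order promoter, exon, intron, intergenic, with 53846 autosomal TSSs. The distance to the 3′ end was taken from the nearest edge of the peak. The 1066 peaks on chromosome X were left out. Intronic peaks followed the same rule and served as the main comparison. Lists were matched at an overlap of at least 1 bp. Base composition, CpG ratio, repeats (lower case in the assembly) and 8 motifs were read within 100 bp of the summit. A host's promoter value is the strongest peak within 1 kb of its TSSs. The classing was tested on made-up genes and peaks with known classes. Python 3.11.15, numpy 2.4.6, pandas 2.3.3, scipy 1.17.1 and pyfaidx 0.9.0.4 were used.

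The regions and the 24 gene lists, with 454 genes, were chosen with earlier results of these data known. No p-value was computed, as there is 1 group and peaks of a list are not replicates. Named were the 12 strongest and 6 widest regions, the 8 genes with most regions, and the strongest 3 of each location, exon position, exon length, pool category, gene list and motif, of which a part is given; sequences were kept off chromosome 18. A few genes that the rule names are not reported here. Bsn, Shank1, Depdc5 and Strbp, the further hosts in the list of neural transcription factors, and Nfib and Tcf4 with their values, were named after their values were seen. Alternatives were each pool's own list, the pseudoreplicated list, a −log10 q of at least 5, promoter windows of 500 and 2500 bp, the distance to the 3′ end from the summit, exons of coding transcripts alone and stricter overlaps. Equal GC, repeats, other start sites and the gene with most regions left out were added after seeing the data.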

Additional observations from a re-analysis of the deposited data

How the results depend on the processing

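The density ratio of exons to introns stayed above 1, and the GC difference above 0, under the alternatives chosen at the outset, but the ratio turned under 3 settings added after seeing the data: 0.679 at equal GC, 0.948 outside repeats and 0.556 with both. From each pool's own list alone the count was 1170 (pool J) to 1655 (pool I), the median signal 3.71 to 4.09, the coding share 64.4% to 66.3% and the GC difference 5.97 to 6.47 points. Of those peaks, 812 of 1170 and 976 of 1655 overlapped a region described here, as did 1541 of the 1931 from the pseudoreplicated list of both pools. Among peaks with a −log10 q of 5 or more the count was 750, the median signal 4.47, the GC difference 5.97 points and the share matched in both pools 83.6%. With an overlap of 50% of both peaks that share was 26.5%, and with 50% of the shorter peak 44.7%. With the 3′ distance taken from the summit the count was 2020, the density ratio 1.23, the coding share 63.7% and the GC difference 5.97 points. The GC difference was also 5.97 points with the pseudoreplicated list and with a 500 bp promoter window, and it moves in steps of 1 base of the window. Promoter windows of 500 and 2500 bp gave 1965 and 1647 regions. Without regions near any start site of the full GENCODE or RefSeq set 1358 remained, with a coding share of 60.2%. The causes were not tested. No paired analysis was possible because there is 1 group. Depth is unknown, and weak regions depend most on the list: 348 of the 1847 had no match in either pool.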

Other observations

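The share of a chromosome's peaks that were exonic ran from 1.74% on chromosome 12, with 59 of 3383, to 3.46% on chromosome 1, with 158 of 4570. Chromosome 11 had 3.32%. The 2 strands of the host genes held 927 and 920 regions. In 17 cases the summit lay in exons of more than 1 coding gene, so that the host named is 1 of several.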
